A study of Mus musculus with 17 samples.

Results

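Histone genes were followed across 17 exon arrays of 32D cells, mouse cells resembling myeloblasts whose growth depends on the cytokine IL-3. Members were taken by symbol, under older names such as Hist1h and H2af and current names such as H2ac and H2bc, and MHC genes of the H2- type were left out. The annotation held 41 such genes, and 40 of them, among 20227 genes tested, had a probe set above the filter on dim signal. Of these 40 genes, 23 were replication-dependent, 13 were variants and 4 were pseudogenes. The member that did not pass was H2bc1, the testis histone gene TH2B. H1f0, also called H1.0, was not analysed here.

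The arrays formed 5 groups. The first held 9 lines, each with a different human FLT3 gene carrying an internal tandem duplication (ITD), an activating lesion of leukaemia, and these lines grew without IL-3. They are numbered 1 to 9, with 1 array each. The second group (2 arrays) was cells with wild-type (WT) human FLT3 and FLT3 ligand at 20 ng/mL, and the third (2 arrays) was the same cells without ligand. The fourth (2 arrays) carried the empty retroviral vector pLXRN, and the fifth (2 arrays) was parental 32D. The WT, vector and parental cultures received mouse IL-3 at 1 ng/mL. None of the ITD lines did, so against these groups the mutant receptor and the lack of IL-3 cannot be told apart. The growth protocol does not settle whether IL-3 was kept in the ligand cultures, so presence of ligand and a lack of IL-3 cannot be told apart there. The label of those arrays could also mean transduction with the ligand, but the protocol describes added ligand and was followed. Transduced cells were kept as mixed populations of many clones. Whether the 2 arrays of a group came from separately made lines is not stated, so p-values measure the spread between these cultures, which may be technical.

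Replication-dependent histone genes supply the bulk histones that package newly made DNA. They lie in clusters, are transcribed in S phase, and their mRNAs end in a stem-loop bound by the protein SLBP and carry no poly(A) tail. Variant histone genes mostly lie alone, give spliced and polyadenylated mRNAs, and supply histones for exchange throughout the cell cycle. Near-identical members of a cluster share much of their coding sequence, so a probe set may read several of them.

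Of the 23 replication-dependent genes 17 lay on chromosome 13, 4 on chromosome 3 and 2 on chromosome 11, and the 13 variants were spread over 9 chromosomes. RefSeq windows on GRCm38.p6, from 250 bases before to 50 bases after the gene start, were matched for 33 of the 40 genes. They were searched on both strands for 3 motifs, none contained in another: CCAAT, the TATA core TATAA and the octamer ATTTGCAT, which POU factors bind. CCAAT was present in 20 of 21 replication-dependent windows and 9 of 12 variant windows, against 37.41% of all 32851 windows. TATAA was present in 17 of 21 and 1 of 12, against 24.87%. The octamer was present in 8 of 21 and 1 of 12, against 1.74%, and all 8 belonged to H2A or H2B genes (5 of 7 H2A and 3 of 6 H2B). The windows of H2ac8 and H2bc8, which are transcribed away from each other, overlapped by 279 bases and were counted once for each gene. A match describes letters in a window and is not evidence of binding.

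The 4 replication-dependent windows below belong to genes called for variation among the ITD lines, and the 2 variant windows to genes that differed between groups. Each runs 5′ to 3′ along the gene, and capitals mark the motifs on either strand.
H2aw, chr11:58954435-58954734, plus strand: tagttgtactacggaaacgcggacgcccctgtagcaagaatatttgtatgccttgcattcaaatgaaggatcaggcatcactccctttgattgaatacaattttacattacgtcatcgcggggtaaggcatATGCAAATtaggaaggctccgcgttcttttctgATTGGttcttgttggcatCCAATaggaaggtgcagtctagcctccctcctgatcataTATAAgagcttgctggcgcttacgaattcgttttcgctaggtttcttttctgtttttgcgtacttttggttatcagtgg
H2bc18, chr3:96269450-96269749, plus strand: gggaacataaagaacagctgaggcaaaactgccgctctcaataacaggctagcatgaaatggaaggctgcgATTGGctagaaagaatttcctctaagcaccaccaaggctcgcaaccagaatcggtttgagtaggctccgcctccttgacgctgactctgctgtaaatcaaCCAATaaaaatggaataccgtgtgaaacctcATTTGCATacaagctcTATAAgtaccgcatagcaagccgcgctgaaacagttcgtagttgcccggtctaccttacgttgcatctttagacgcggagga
H2bc8, chr13:23571150-23571449, plus strand: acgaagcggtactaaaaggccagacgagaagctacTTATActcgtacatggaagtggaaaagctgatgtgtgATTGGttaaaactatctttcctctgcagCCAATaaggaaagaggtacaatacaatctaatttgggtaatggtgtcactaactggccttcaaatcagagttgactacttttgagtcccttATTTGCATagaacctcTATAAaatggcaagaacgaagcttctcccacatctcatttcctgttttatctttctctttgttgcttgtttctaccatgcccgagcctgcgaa
H4c12, chr13:21750504-21750803, minus strand: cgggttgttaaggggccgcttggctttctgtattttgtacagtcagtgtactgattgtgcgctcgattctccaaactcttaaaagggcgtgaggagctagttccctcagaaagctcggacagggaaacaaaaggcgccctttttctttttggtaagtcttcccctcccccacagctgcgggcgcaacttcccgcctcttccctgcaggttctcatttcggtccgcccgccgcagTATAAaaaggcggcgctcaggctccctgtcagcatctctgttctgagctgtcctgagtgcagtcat
H2az2, chr11:6444394-6444693, minus strand: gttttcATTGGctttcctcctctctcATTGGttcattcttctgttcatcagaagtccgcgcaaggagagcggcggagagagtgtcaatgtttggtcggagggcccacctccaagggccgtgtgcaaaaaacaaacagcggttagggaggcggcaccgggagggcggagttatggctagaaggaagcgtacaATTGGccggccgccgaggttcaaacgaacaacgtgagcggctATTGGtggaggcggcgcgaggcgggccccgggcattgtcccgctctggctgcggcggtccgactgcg
Macroh2a1, chr13:56135501-56135800, minus strand: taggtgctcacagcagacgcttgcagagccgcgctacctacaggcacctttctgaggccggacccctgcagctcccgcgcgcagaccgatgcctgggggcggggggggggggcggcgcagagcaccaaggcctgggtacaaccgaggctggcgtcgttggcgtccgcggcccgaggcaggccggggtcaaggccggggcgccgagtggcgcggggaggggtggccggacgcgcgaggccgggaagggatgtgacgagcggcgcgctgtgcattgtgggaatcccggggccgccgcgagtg
H2aw, H2bc18 and H2bc8 carried all 3 motifs. H4c12 carried the TATA core without CCAAT or the octamer, H2az2 carried 4 CCAAT matches alone, and Macroh2a1 carried none of the 3.

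All values below are log2 signals, and a gene value is the mean of its probe sets. Calls rest on an adjusted p under 0.05, with the Benjamini-Hochberg adjustment made over every gene tested. The label 32D was checked on myeloblast markers: the list mean lay between 10.30 and 10.68 on the ITD arrays and between 10.66 and 11.30 on the 8 other arrays, with Mpo, Prtn3 and Ctsg at group means of 10.96 and above. Mast cell and basophil markers were also high in parental cells, at list means of 10.47 and 10.37, with 8.09 to 9.35 in the ITD lines, 7.19 and 7.28 with ligand, 7.39 and 7.27 in WT and 8.78 and 8.81 in vector cells. Late neutrophil list means lay between 7.35 and 8.76 in the ITD lines and between 8.75 and 9.51 on the 8 other arrays. Monocyte and macrophage means lay between 6.37 and 7.33 in the ITD lines and between 7.43 and 8.53 on the others. Erythroid means were 7.03 to 8.48 in the ITD lines, 8.79 and 8.72 in parental cells and 6.07 to 7.63 on the remaining arrays. Lymphoid and fibroblast markers stayed low, at list means of 5.53 to 6.11 and 5.78 to 6.35 over the 17 arrays. In such bulk RNA a smaller share of cells with an mRNA and less of it in each cell cannot be told apart. In all, 150 of 184 probe sets that list a single histone gene were used, and 6 of the 40 genes rested on 1 probe set.

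Replication-dependent histone genes differed widely from one ITD line to another. Of the 23 replication-dependent genes 8 were called for variation among the 9 ITD lines, and 0 of the 13 variants, where 2.55% of all genes were called. The one-sided F test divided the variance among ITD lines by that within the 4 control pairs, and at an unadjusted p under 0.05 it passed 16 of 23 replication-dependent genes and 3 of 13 variants, where 24.3% of all genes passed, so the share of variants was near that of all genes. The median SD over the ITD lines was 0.54 for replication-dependent genes, 0.189 for variants and 0.199 for all genes. Within control pairs the medians were 0.107, 0.102 and 0.124.

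**Figure D1:**
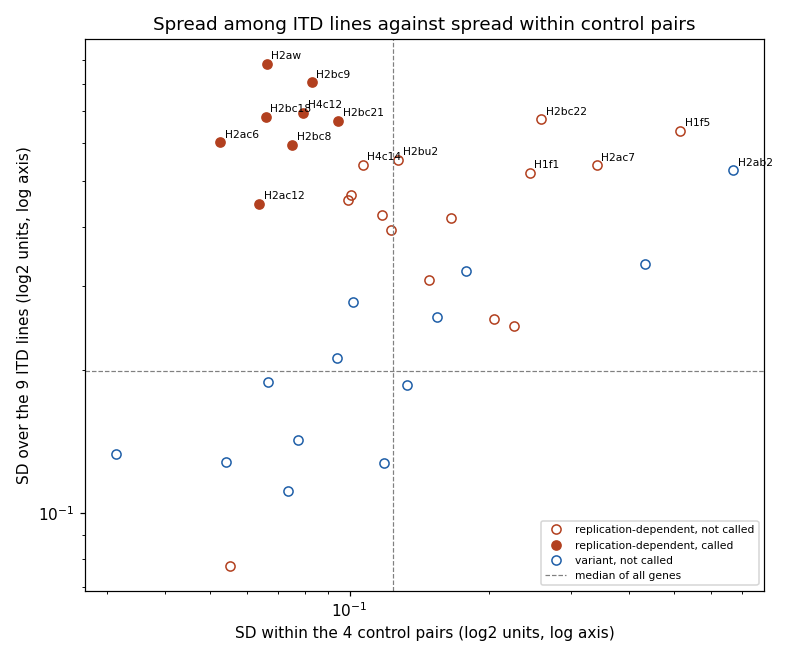
Each point is 1 histone gene, with the SD within the 4 control pairs on the horizontal axis and the SD over the 9 ITD lines on the vertical axis, both in log2 units on log axes. Filled points were called for variation among ITD lines, and dashed lines are the medians of all genes (0.124 and 0.199). The 8 called genes, all replication-dependent, lie at the upper left.

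The high values came from lines 4 and 5. H2aw, an H2A gene outside the main cluster, had 10.56 in line 4 and 10.45 in line 5, against a median of 8.87 and a lowest value of 8.16 over the 9 ITD lines. The arrays with ligand had 10.42 and 10.56, those of WT cells 9.19 and 9.25, vector 9.43 and 9.41, and parental 9.21 and 9.31. Lines 4 and 5 thus stood level with the ligand arrays and above all other arrays, and the ITD values reached both above and below the control range (variance ratio 177, adjusted p 0.0319).

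H2bc18, an H2B gene of the chromosome 3 cluster with 12 probe sets, had 10.03 in line 4 and 9.64 in line 5, with a median of 8.37 and a lowest value of 8.16 over the ITD lines. Its values were 9.31 and 9.39 with ligand, 8.73 and 8.57 in WT, 8.39 and 8.44 in vector and 8.41 and 8.39 in parental cells. Lines 4 and 5 were above every other array (variance ratio 107, adjusted p 0.0347). Line 4 was the highest ITD line in all 12 of its probe sets.

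H4c12, an H4 gene of chromosome 13, ran over the ITD lines from 7.77 through a median of 8.75 to 10.02 in line 4, with 9.59 in line 5. It had 9.32 and 9.44 with ligand, 8.52 and 8.43 in WT, 8.95 and 8.79 in vector and 9.10 and 9.05 in parental cells. Again lines 4 and 5 were the highest arrays, and the lowest ITD line was below all controls (variance ratio 76.9, adjusted p 0.0383). H2bc9, an H2B gene, ran from 7.10 through 7.80 to 9.29 in line 5, with 9.10 in line 4. It had 9.12 and 8.96 with ligand, 8.10 and 8.22 in WT, 8.28 and 8.22 in vector and 8.15 and 8.04 in parental cells (variance ratio 94.5, adjusted p 0.0367). Here line 5 was the highest array, and line 4 lay between the ligand arrays.

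Also called were H2bc8, H2bc21, H2ac6 and H2ac12. H2bc8, which shares its promoter window with H2ac8, ran from 6.67 through 6.98 to 8.36 in line 4 (variance ratio 62.9, adjusted p 0.0417), and H2bc21, known in mouse for a form of H2B in olfactory neurons, from 9.07 through 9.43 to 11.03 in line 4 (variance ratio 50.1, adjusted p 0.0465). H2ac6 ran from 11.28 through 11.84 to 13.12 in line 4 (variance ratio 131, adjusted p 0.0332). Each of these 3 genes was highest in line 4 and next highest in line 5. H2ac6 and H2ac12 had 2 probe sets each, of which 1 lay near the upper end of the scale, at means of 14.342 and 14.339, and varied little over the ITD lines (SD 0.049 and 0.063). Their variation came from the dimmer probe set, with a mean of 9.884 for H2ac6 and 4.778, near the filter, for H2ac12. Without probe sets as dim as that one the variance ratio of H2ac12 was 1.27 (adjusted p 0.569), against 49.2 with it.

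**Figure D2:**
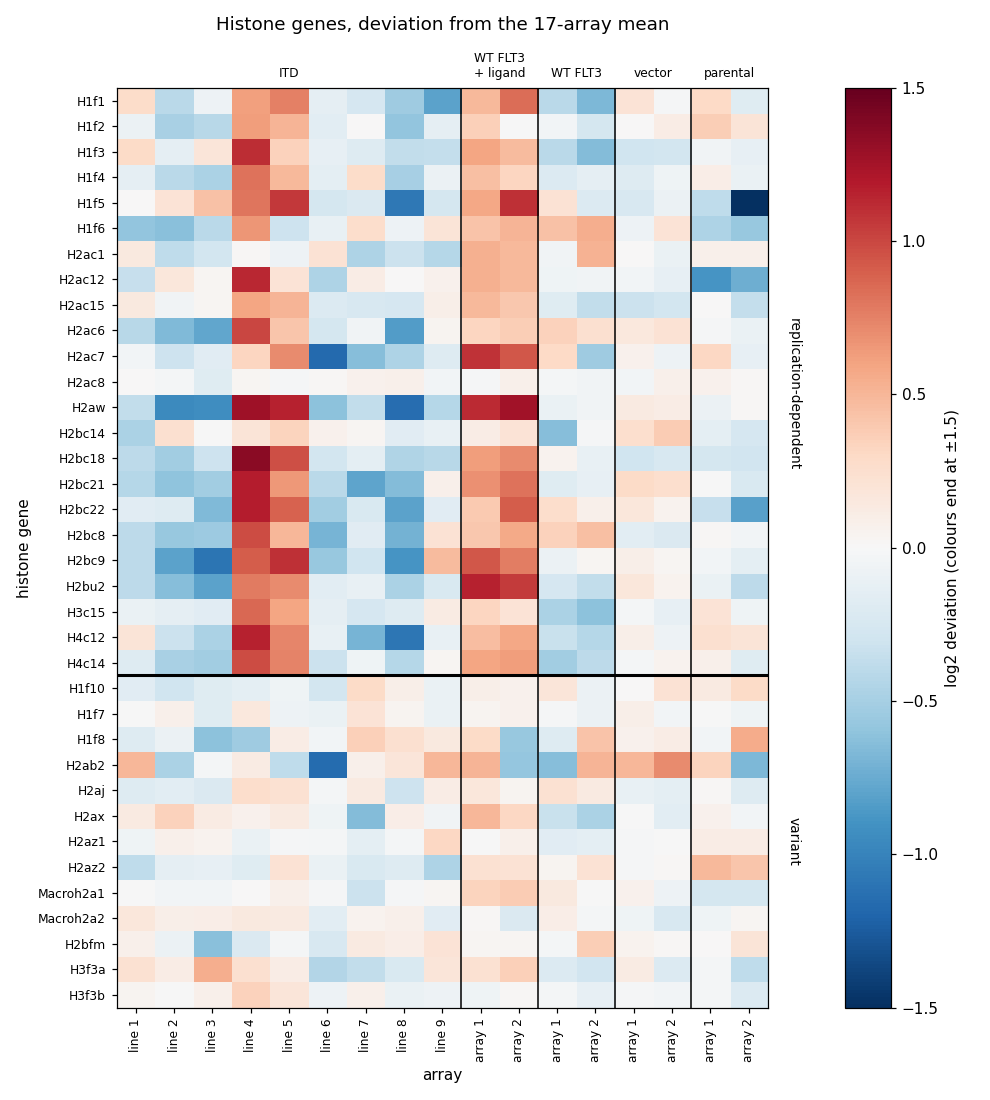
Rows are the 23 replication-dependent genes (above the thick line) and 13 variants (below it), columns the 17 arrays by group, and colours the log2 deviation from the gene's mean over all arrays, ending at ±1.5. Lines 4 and 5 and both ligand arrays are red over most of the upper block, and the lower block shows no such columns.

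Over the class, line 4 was the highest ITD line for 16 of 23 replication-dependent genes and line 5 for 5, and the lines 4 and 5 were the top pair for 19 of 23. That held for 2 of 13 variants and 7.92% of all genes. Line 4 lay above all 6 control arrays (WT, vector and parental) for 20 of 23 replication-dependent genes and line 5 for 19, where 21.6% and 19.2% of all genes did so. Line 3 lay below all 6 for 13 of the 23, and lines 2 and 8 for 11 each, where 23.3%, 21.4% and 18.2% of all genes did so. These lines were picked out after their values were seen, and no single line was tested. The median deviation of replication-dependent genes from their 17-array means was 0.86 in line 4 and 0.59 in line 5, and it lay between -0.48 and -0.11 in the other 7 lines. For the variants it lay between -0.10 and 0.11 in all 9 lines.

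**Figure D3:**
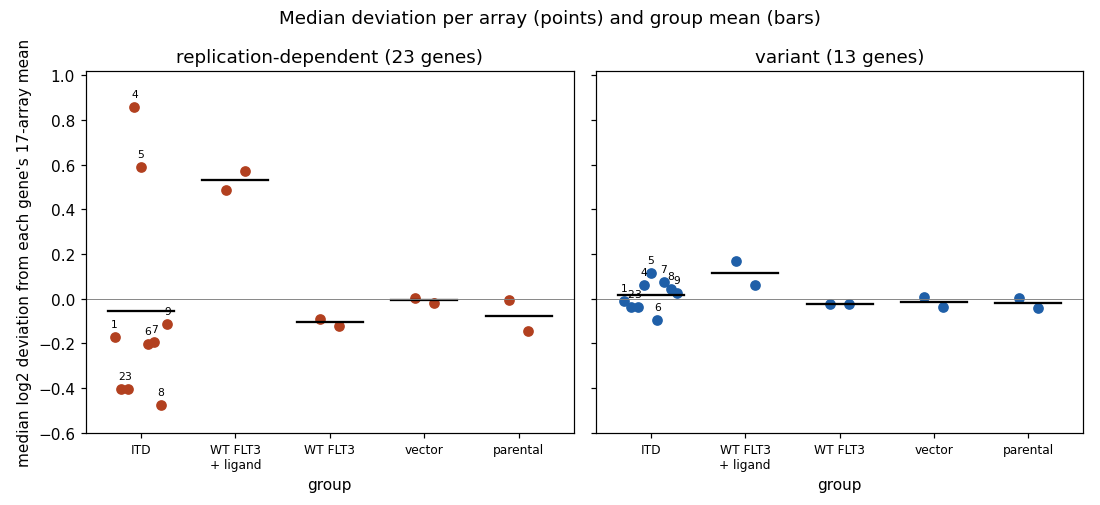
Points are arrays, with ITD lines numbered, and give the median log2 deviation of 23 replication-dependent genes (left) or 13 variants (right) from each gene's 17-array mean; bars are group means. On the left, lines 4 and 5 (0.86 and 0.59) and the ligand arrays (0.49 and 0.57) are high and the other 13 arrays lie at or below 0.00, while on the right all arrays lie between -0.10 and 0.17.

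H2ac8, an H2A gene, was read by 1 probe set at the upper end of the scale, where a rise may not show, and no gene was brighter. It had a lowest value of 14.20, a median of 14.39 and a highest value of 14.46 over the ITD lines, and 14.33 to 14.46 on the other arrays. Among the other genes, H2ac1, the testis gene TH2A, was highest in line 6, and H2bc14 had an SD of 0.25 over the ITD lines against 0.23 within pairs. The call of variation also depended on single libraries. Of the 40 histone genes, 3 were called without line 4, 4 without line 7 and 0 without lines 4 and 5 both, where 226, 157 and 144 of all 20227 genes were called, against 516 with every array. After removing any 1 of the 8 arrays outside the ITD group 0 histone genes were called, and 0 to 5 of all genes, since this leaves fewer degrees of freedom within pairs.

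Myeloid markers and cell cycle genes are given beside this spread, and their part in it was not tested. The mean of 8 late neutrophil markers was 7.35 in line 4 and 7.63 in line 5, lower than in the other 7 lines (8.12 to 8.76). The mean of 6 monocyte and macrophage markers was 6.37 in line 4, the lowest, and 7.13 in line 5 (6.82 to 7.33 in the others). Mast cell and basophil markers had means of 8.64 and 8.09 in lines 4 and 5 (8.52 to 9.35 in the others), and erythroid markers 8.48, the highest, and 7.97 (7.03 to 8.23 in the others). The mean of 27 S phase and DNA replication genes was 9.23 in line 4 and 9.46 in line 5, inside the range of the other lines, from 8.96 in line 7 to 9.67 in line 9. The mean of 13 G2 and mitosis genes was 10.32 and 10.48 in lines 4 and 5, against 9.92 to 10.41 in the others. Line 9, highest for the S phase list, had a median replication-dependent deviation of -0.11. Of the 27 S phase genes 5 were called for variation, among them Tk1, a thymidine kinase gene (adjusted p 0.0213), and Gins1, of the replicative helicase (adjusted p 0.0363). Of 15 genes for histone mRNA synthesis and processing 0 were called, and of 14 H2A-H2B chaperone and exchange genes and 15 H3-H4 chaperone genes 1 each.

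**Figure D4:**
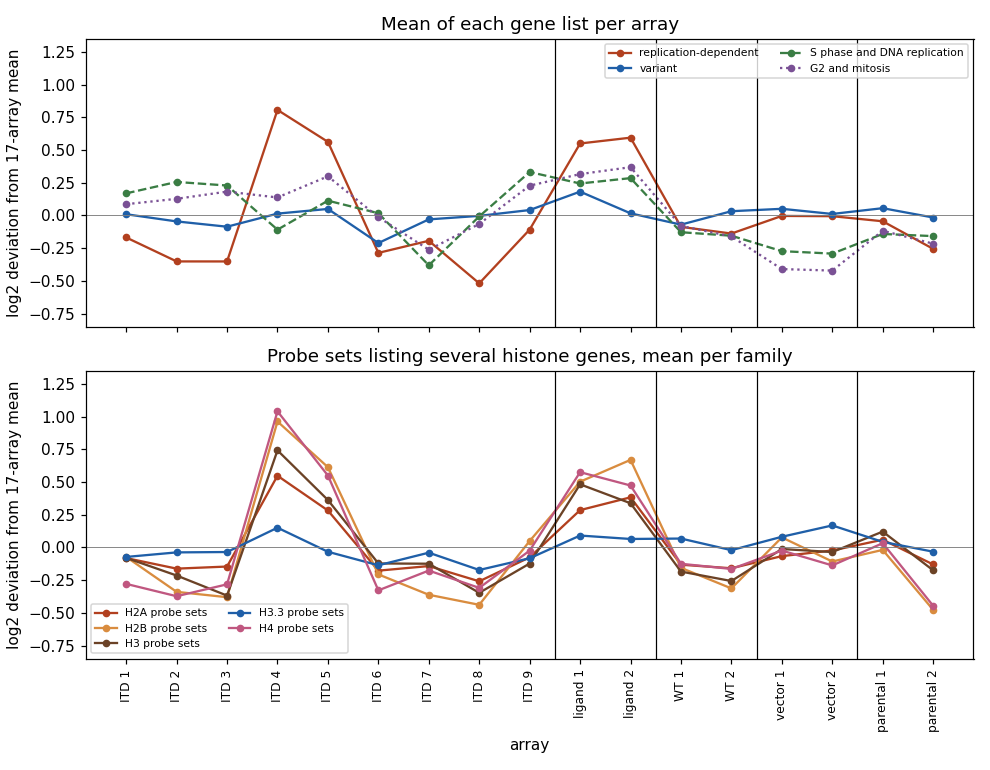
Lines join the 17 arrays and show log2 deviations from the 17-array mean, above for the means of 4 gene lists and below for probe sets that list several histone genes, averaged by family. Replication-dependent genes and the H2A, H2B, H3 and H4 probe sets peak in ITD lines 4 and 5 and on the ligand arrays. The variants and the S phase list show no such peak in lines 4 and 5. Among the ITD lines the H3.3 probe sets are highest in line 4 (12.04) without line 5 standing out (11.85). The second vector array was higher still (12.055).

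Probe sets listing several histone genes, which name no single gene, were kept out of the gene values and averaged by family. For H4 (27 probe sets) the mean was 10.69 in line 4 and 10.20 in line 5 and lay between 9.28 and 9.63 in the other ITD lines. The H4 mean was 10.23 and 10.13 with ligand, 9.53 and 9.49 in WT, 9.63 and 9.52 in vector and 9.69 and 9.21 in parental cells. For H2A (19 probe sets), H2B (32) and H3 (28) line 4 was again the highest ITD line and line 5 the next. For the variant H3.3 (15 probe sets) line 4 was also the highest ITD line, at 12.04, with 11.85 in line 5 and 11.71 to 11.85 in the others. The second vector array was higher, at 12.055. None of the 5 family means was called for variation, and adjusted p ran from 0.123 to 0.36. These probe sets list genes of the same families and are not separate evidence.

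Most replication-dependent histone genes had higher values in WT FLT3 cells with ligand than in the same cells without it, which was not called in the fit of 17 arrays and was called for 13 genes in a fit of the 8 arrays outside the ITD group. The comparison sets cells given the receptor's own ligand beside the same cells without it. Whether IL-3 was kept in the ligand cultures is not settled, so presence of ligand and a lack of IL-3 cannot be told apart in it. The difference was above 0 for 22 of 23 replication-dependent genes with a median of 0.722, and for 9 of 13 variants with a median of 0.056, beside a median of -0.00654 over all genes. Both ligand arrays lay above both WT arrays for 19 of 23 replication-dependent genes and 6 of 13 variants, where 25% of all genes did so. Both lay above all 6 WT, vector and parental arrays for 15 of 23 and 3 of 13, where 11.8% of all genes did so. In 0 of the 36 genes were both ligand arrays below both WT arrays, or below all 6, where 22.8% and 5.97% of all genes were.

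H2bu2, an H2B gene on chromosome 11 read by 1 probe set, had 10.39 and 10.28 with ligand, against 8.99 and 8.86 in WT cells. Its ITD lines ran from 8.43 through a median of 9.01 to 10.02, and it had 9.40 and 9.29 in vector and 9.14 and 8.84 in parental cells. The ligand arrays were thus above every other array. H4c14, an H4 gene of chromosome 3, had 10.91 and 10.94 with ligand, against 9.80 and 9.92 in WT cells. It had 10.29 and 10.37 in vector and 10.39 and 10.13 in parental cells. H3c15, an H3 gene of that cluster read by 1 probe set, had 11.88 and 11.75 with ligand, against 11.08 and 10.94 in WT. Its values were 11.52 and 11.43 in vector and 11.76 and 11.49 in parental cells. Among linker histones, which bind DNA between nucleosomes, H1f3 had 9.23 and 9.11 with ligand, against 8.25 and 8.0 in WT. It had 8.35 and 8.37 in vector and 8.59 and 8.52 in parental cells. H1f1 had 9.41 and 9.76 with ligand, against 8.52 and 8.24 in WT, with 9.12 and 8.90 in vector and 9.22 and 8.74 in parental cells. For each of these genes the ligand and WT pairs did not overlap, and WT cells had the lowest mean of the IL-3-grown groups. For H3c15 a parental array lay between the ligand arrays.

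In the fit of all 17 arrays none of these differences was called. In that fit 0% of all genes were called in this comparison, 8 replication-dependent genes and 3 variants had an unadjusted p under 0.05 (1555 of all genes), and the smallest adjusted p was 0.446 for replication-dependent genes and 0.431 for variants. That fit shares 1 spread over all groups, to which the 9 ITD lines contribute most, and for these genes the ITD spread was far above that within pairs. A fit of the 8 arrays outside the ITD group, chosen after seeing this, used the spread within pairs. It called 13 of 23 replication-dependent genes and 2 of 13 variants higher and 0 of either lower, where 4.21% of all genes were called higher and 5.68% in either direction.

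In that fit H2bu2 was higher with ligand by 1.41 ± 0.10 (log2, SE, adjusted p 0.000529), H2aw by 1.27 ± 0.07 (adjusted p 0.000123) and H1f1 by 1.20 ± 0.18 (adjusted p 0.00635). H4c14 was higher by 1.07 ± 0.09 (adjusted p 0.000727), H1f3 by 1.05 ± 0.09 (adjusted p 0.00104), and H3c15 by 0.80 ± 0.09 (adjusted p 0.00283). The others called were H4c12, H2bc21, H2bc9, H2ac15, H2bc18, H2ac12 and H1f4, at 0.56 to 0.90. H2ac15 is the mean of a probe set near the upper end of the scale (mean 14.382), which differed by 0.11, and one with a mean of 9.717, which differed by 1.33. For H2ac12 the bright probe set (mean 14.339) differed by 0.074 and the one near the filter (mean 4.778) by 1.058. All 4 core histone families and the linker family were thus represented. H1f1, H4c14, H3c15, H2bc21, H2bu2 and H4c12 were in this fit also called lower in WT than in vector cells, as given below. H2ac6 and H2bc8, which varied among the ITD lines, differed with ligand by 0.05 ± 0.05 and 0.09 ± 0.09 (adjusted p 0.667 and 0.671). Their probe sets disagreed in direction, with 0.209 and -0.102 for H2ac6 and 0.292, 0.357 and -0.369 for H2bc8.

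Among variants, H2ax, which marks DNA breaks when phosphorylated and whose gene makes a stem-loop mRNA besides a polyadenylated one, had 11.98 and 11.80 with ligand, against 11.15 and 11.01 in WT cells. The ITD lines had 10.83 at the lowest, a median of 11.58 and 11.83 at the highest, vector cells 11.47 and 11.33, and parental cells 11.55 and 11.44. Its ligand difference was 0.81 ± 0.08 in the fit of 8 arrays (adjusted p 0.00174), within the range of the replication-dependent genes. H2az1, a gene of H2A.Z, was higher by 0.19 ± 0.04 (adjusted p 0.0419), and H3f3a, a gene of H3.3, by 0.54 ± 0.14 (adjusted p 0.0576, not called). The H3f3a value rests on its dim probe set (mean 5.357), which differed by 1.075. Its bright probe set (mean 11.385) differed by 0.012.

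**Figure D5:**
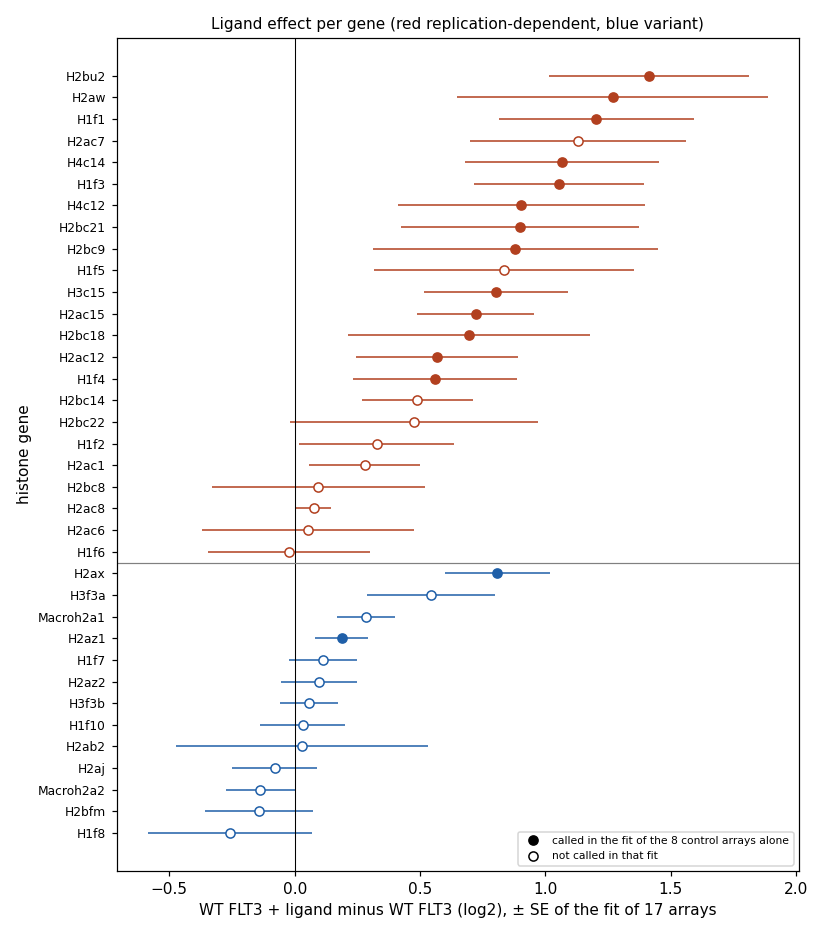
Points give the log2 difference of WT FLT3 cells with ligand minus WT FLT3 cells for each of 23 replication-dependent genes (red, above the grey line) and 13 variants (blue), and bars the SE from the fit of 17 arrays. Filled points were called in the fit of the 8 arrays outside the ITD group: 13 replication-dependent genes, H2ax and H2az1.

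In the single probe sets, the difference with ligand was above 0 in 57 of 62 of replication-dependent genes (median 0.732). For variants it was above 0 in 58 of 78 (median 0.114). The gene values are means of these same probe sets, of which H2bc18 alone has 12, so they are not separate evidence. Probe sets listing several genes differed by 0.48 ± 0.20 for H2A, 0.82 ± 0.36 for H2B, 0.63 ± 0.27 for H3, 0.67 ± 0.36 for H4 and 0.05 ± 0.09 for H3.3 in the fit of 17 arrays, and 0 of these 5 were called (adjusted p 0.576 to 0.93). The S phase list was above 0 with ligand for 27 of 27 genes with a median of 0.374, and the G2 and mitosis list for 13 of 13 with a median of 0.413. In the fit of 17 arrays 0 genes of either list were called, and in the fit of 8 arrays 19 of 27 and 12 of 13 were called higher. Late neutrophil markers had list means of 8.75 and 8.87 with ligand, against 9.01 and 9.12 in WT cells, and monocyte and macrophage markers 8.31 and 8.30 with ligand, against 8.03 and 7.92 in WT. In the fit of 8 arrays 2 of 8 late neutrophil markers were lower, 1 of 6 monocyte and macrophage markers and 1 of 6 myeloblast markers higher, and of 6 mast cell and basophil markers 1 was higher and 2 lower. The part of these lists in the result was not tested.

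Against WT FLT3 cells with ligand, the ITD lines had lower mean values of replication-dependent histone genes, and 3 of these fell past the threshold. The comparison sets 2 ways to activate the receptor side by side, and the 2 sides may also differ in IL-3. It shares the ligand arrays with the one above. All 23 replication-dependent differences were below 0 with a median of -0.64, while 3 of 13 variants were above 0, with a median of -0.101, beside a median of -0.0156 over all genes. Called lower were 3 of 23 replication-dependent genes and 1 of 13 variants, where 5.8% of all genes were called, 4.08% lower and 1.72% higher. H2bu2, given above and read by 1 probe set, fell by 1.25 ± 0.31 (adjusted p 0.0249).

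Markers of other cell types also differed in this comparison. Erythroid markers were called higher for 3 of 3 genes, with list means of 7.03 to 8.48 in the ITD lines, against 6.50 and 6.39 with ligand. Of 6 mast cell and basophil markers 2 were higher, Prss34 by 4.93 ± 0.42 (adjusted p 2.87e-06) and Cpa3 by 2.76 ± 0.25, with list means of 8.09 to 9.35 in the ITD lines, against 7.19 and 7.28 with ligand. Called lower were 3 of 6 monocyte and macrophage markers, 3 of 8 late neutrophil markers and 2 of 6 myeloblast markers, of which 1 was higher. Their part in the histone differences was not tested.

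H2ac7, an H2A gene near background, ran over the ITD lines from 4.27 through 5.24 to 6.14 and had 6.52 and 6.36 with ligand, 5.73 and 4.90 in WT, 5.50 and 5.35 in vector and 5.74 and 5.31 in parental cells. It fell by 1.23 ± 0.34 against the ligand arrays (adjusted p 0.0414), which did not overlap the ITD lines. H2ac1, read by 1 probe set, ran from 6.71 through 6.90 to 7.39 in the ITD lines. It had 7.71 and 7.67 with ligand, 7.12 and 7.69 in WT, 7.18 and 7.08 in vector and 7.26 in both parental arrays. It fell by 0.68 ± 0.17 (adjusted p 0.0266), again without overlap.

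The variant was Macroh2a1, which encodes macroH2A, a large H2A form found on silent chromatin and the inactive X. Its ITD lines ran from 9.20 through 9.50 to 9.59, with 9.85 and 9.90 with ligand, 9.67 and 9.51 in WT, 9.58 and 9.44 in vector and 9.25 and 9.26 in parental cells. It fell by 0.40 ± 0.09 against the ligand arrays (adjusted p 0.0142), which were the highest of all arrays. None of these 4 calls stood without either ligand array. That fit has a single array in the ligand group, so it cannot decide whether the calls hold. With each array left out in turn, the difference ran from -1.36 to -1.17 for H2bu2 and from -1.34 to -1.11 for H2ac7. It ran from -0.731 to -0.646 for H2ac1 and from -0.423 to -0.362 for Macroh2a1. Without line 4, 7 histone genes were called, where 1354 of all genes were called, against 1173 with every array.

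Against the IL-3-grown controls the ITD lines showed no common shift of histone genes. The contrast was the ITD mean minus the mean of the WT, vector and parental groups, each weighted alike, and the differences between those 3 groups do not enter its SE. Of the replication-dependent genes 12 of 23 were above 0 with a median of 0.000938, and 7 of 13 variants with a median of 0.0238, beside -0.0114 over all genes. Called were 0 of 23 replication-dependent genes (4 at an unadjusted p under 0.05, beside 6391 of all 20227 genes, and smallest adjusted p 0.0832) and 1 of 13 variants, where 19.4% of all genes were called, 11.2% higher and 8.15% lower. For 0 of the 40 genes did all 9 ITD lines lie beyond all 6 control arrays, where 0.974% of all genes lay above and 1.39% below. H2ac15, an H2A gene with 1 of its 2 probe sets near the upper end of the scale, had the smallest adjusted p of its class (0.0832), at 0.32 ± 0.12. Its ITD lines ran from 11.79 through 12.08 to 12.64, with 12.53 and 12.46 with ligand, 11.87 and 11.68 in WT, 11.73 and 11.77 in vector and 12.06 and 11.70 in parental cells, so that ITD and control arrays overlapped.

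The called variant was H2az2, the other gene of H2A.Z, an H2A form placed at gene starts. The ITD lines ran from 10.23 through a median of 10.51 to 10.90, with 10.92 and 10.91 with ligand, 10.73 and 10.91 in WT, 10.67 and 10.71 in vector and 11.18 and 11.11 in parental cells. It fell by 0.37 ± 0.08 (adjusted p 0.00386), and the highest ITD value, in line 5, lay inside the control range. The parental arrays were the highest, and without them the difference was -0.238 (adjusted p 0.0943). With the 12 lines as units it was -0.369 (adjusted p 0.152).

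The remaining somatic variants were not called against the controls. H2az1 ran over the ITD lines from 12.41 through 12.53 to 12.87, with 12.54 and 12.63 with ligand, 12.39 and 12.41 in WT, 12.54 and 12.55 in vector and 12.66 and 12.67 in parental cells. H3f3b, the other H3.3 gene, ran from 13.06 through 13.20 to 13.50, with 13.09 and 13.18 with ligand, 13.12 and 13.03 in WT, 13.14 and 13.12 in vector and 13.13 and 12.95 in parental cells. H3f3a ran from 7.93 through 8.49 to 8.92, with 8.61 and 8.73 with ligand, 8.16 and 8.08 in WT, 8.49 and 8.17 in vector and 8.35 and 7.99 in parental cells. In all 3 genes the ITD range overlapped the control range.

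H2aj, a replacement H2A, ran from 10.00 through 10.28 to 10.58 in the ITD lines, with 10.48 and 10.35 with ligand, 10.54 and 10.45 in WT, 10.21 and 10.16 in vector and 10.33 and 10.12 in parental cells. Macroh2a2, the second macroH2A gene, ran from 6.30 through 6.56 to 6.64, with 6.49 and 6.26 with ligand, 6.57 and 6.45 in WT, 6.41 and 6.23 in vector and 6.41 and 6.50 in parental cells. H1f10, the linker variant H1X, ran from 6.31 through 6.46 to 6.91, with 6.71 and 6.67 with ligand, 6.80 and 6.52 in WT, 6.62 and 6.83 in vector and 6.74 and 6.90 in parental cells. These also overlapped, and none was called in any of the 6 comparisons in the fit of 17 arrays. The germline-type variants H1f7, H1f8, H2ab2 and H2bfm had group means of 5.92 to 6.70 and none was called.

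Against WT FLT3 cells alone, 0 of the 40 genes were called in the ITD lines (4 of 23 replication-dependent genes and 2 of 13 variants at an unadjusted p under 0.05, beside 4436 of all 20227 genes), where 7.71% of all genes were called (3.27% higher, 4.44% lower), and the class medians were 0.0736 and -0.00938. Over the 5 groups together the moderated F test of limma called 3 of 23 replication-dependent genes and 2 of 13 variants, where 26.8% of all genes were called. These were H2bu2 (adjusted p 0.0418), H2ac1 (0.041), H2ac12 (0.0413), H2az2 (0.00426) and Macroh2a1 (0.0073). H2ac12 ran from 9.09 through 9.62 to 10.68 in the ITD lines, with 10.09 and 10.04 with ligand, 9.49 and 9.51 in WT, 9.51 and 9.44 in vector and 8.67 and 8.82 in parental cells, so the parental arrays were lowest. That rests on its dim probe set, which had 3.02 and 3.25 in parental cells, below the filter of 4.599. H1f6, the testis linker histone H1t, was not called (adjusted p 0.0751). It ran from 4.99 through 5.50 to 6.27 in the ITD lines, with 6.04 and 6.12 with ligand, 6.05 and 6.15 in WT, 5.53 and 5.81 in vector and 5.15 and 5.04 in parental cells. Its WT pairs with and without ligand overlapped and lay above the vector and parental pairs.

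In the fit of the 8 arrays the control lines differed in some histone genes. Counted in both directions, the share of histone genes called was near that of all genes in both comparisons below. WT FLT3 minus vector called 0 of 40 genes in the fit of 17 arrays, where 8.22% of all genes were called (5.5% higher, 2.71% lower). In the fit of 8 arrays it called 7 of 23 replication-dependent genes and 2 of 13 variants lower, where 7.59% of all genes were lower, and 1 of each class higher, where 15.4% were higher and 23% were called in all. The 7 that fell were H1f1, H2bc14, H4c14, H3c15, H2bc21, H2bu2 and H4c12, with differences of -0.65 to -0.39. The WT arrays also enter the ligand comparison, where they are the side subtracted. In the fit of 8 arrays all of the 7 but H2bc14 were also called higher with ligand. H2bc8 was the replication-dependent gene that rose, with 7.72 and 7.82 in WT cells, against 7.22 and 7.16 in vector cells, and H2aj rose by 0.31 ± 0.08 (adjusted p 0.0216).

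Vector minus parental called 0 of 40 genes in the fit of 17 arrays (of all genes 2.23%, with 1.27% higher and 0.959% lower). In the fit of 8 arrays 3 of 23 replication-dependent genes were higher, where 6.2% of all genes were higher, and 1 of 13 variants lower, where 7.5% were lower and 13.7% were called in all. H2bc21 rose by 0.39 ± 0.08 (adjusted p 0.0146) and H2ac6 by 0.25 ± 0.05 (adjusted p 0.0163). The 2 probe sets of H2ac6 differed in direction, by -0.09 for the one near the upper end of the scale and 0.581 for the dimmer one. The third was H2ac12, whose bright probe set had means of 14.318 in vector and 14.352 in parental cells, and whose dim one had 4.72 and 4.54 in vector and 3.02 and 3.25 in parental cells, so that the parental values lay below the filter and no size is given. Of the variants H2az2 fell by 0.46 ± 0.06 (adjusted p 0.00213).

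Many genes that make, process and place histones rose in the ITD lines against the IL-3-grown controls, where 0 of 23 replication-dependent genes rose. Of 15 genes of histone mRNA synthesis and processing 8 rose with a median of 0.261, among them Upf1, of the decay of histone mRNA, by 0.39 ± 0.09 (adjusted p 0.00419), the cleavage factor gene Cstf2 by 0.29 ± 0.06 (adjusted p 0.00427), Zfp473 by 0.40 ± 0.09 (adjusted p 0.00565) and the cap-binding gene Ncbp1 by 0.32 ± 0.07 (adjusted p 0.00571). Of 14 H2A-H2B chaperone and H2A.Z exchange genes 10 rose with a median of 0.298, among them Ruvbl2 by 0.42 ± 0.06 (adjusted p 7.7e-05), Npm1 by 0.33 ± 0.05 (adjusted p 0.000182), Anp32e by 0.47 ± 0.09 (adjusted p 0.00151) and Supt16 by 0.41 ± 0.09 (adjusted p 0.00394). Their rise stood beside 11.2% of all genes called higher in this comparison. The mutant receptor and the lack of IL-3 cannot be told apart in it.

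Against WT FLT3 cells alone, which are 1 of those 3 control groups, fewer of these genes passed the test. Of the 15 genes of histone mRNA synthesis and processing 1 rose, Upf1 by 0.47 ± 0.13 (adjusted p 0.0326), with a list median of 0.154. Cstf2 differed by 0.06 ± 0.09 and Ncbp1 by -0.07 ± 0.11 (adjusted p 0.778 and 0.77). Of the 14 H2A-H2B chaperone and exchange genes 1 rose, Ep400, with a list median of 0.0574, while Ruvbl2 differed by -0.03 ± 0.08 and Npm1 by 0.13 ± 0.07 (adjusted p 0.896 and 0.332). In the fit of all arrays, WT FLT3 minus vector called 4 of 15 and 2 of 14 higher, with medians of 0.22 and 0.366. Of all genes 5.5% were called higher there. For the same difference, the fit of the 8 arrays outside the ITD group called 5 of 15 and 9 of 14 higher and 0 lower. Of all genes that fit called 15.4% higher. Against WT FLT3 cells 2 of 27 S phase genes and 3 of 13 G2 and mitosis genes rose, and 0 of 15 H3-H4 chaperone genes and 0 of 5 centromeric genes, where 3.27% of all genes were called higher.

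The further lists below are again given for the ITD lines minus the 3 control groups, where 11.2% of all genes were called higher and 8.15% lower. Of 15 H3-H4 chaperone genes 2 rose, Nasp by 0.39 ± 0.09 (adjusted p 0.00591) and Hira by 0.17 ± 0.05 (adjusted p 0.0442). In that list 1 fell, the H3.3 chaperone gene Daxx by 0.21 ± 0.07 (adjusted p 0.0453). Of 5 genes for the centromeric histone and its loading 2 rose, Oip5 by 0.59 ± 0.13 (adjusted p 0.00384) and Cenpc1 by 0.37 ± 0.10 (adjusted p 0.021). Of 27 S phase genes 7 rose with a median of 0.208, among them Mcm10 by 0.47 ± 0.07 (adjusted p 0.000355), Pole by 0.63 ± 0.12 (adjusted p 0.00163), Ccne2 by 0.72 ± 0.15 (adjusted p 0.00349) and Rrm1 by 0.35 ± 0.08 (adjusted p 0.00452). Of 13 G2 and mitosis genes 9 rose with a median of 0.332, among them Cdk1 by 0.36 ± 0.07 (adjusted p 0.00223). In the contrast with the 3 control groups 6 of 8 late neutrophil markers fell and 1 rose, 5 of 6 monocyte and macrophage markers and 5 of 6 myeloblast markers fell, and 2 of 3 erythroid markers rose, Gata1 by 0.73 ± 0.20 (adjusted p 0.0156) and Klf1 by 1.00 ± 0.19 (adjusted p 0.0013). Of 6 mast cell and basophil markers Prss34 rose by 1.76 ± 0.28 (adjusted p 0.000379) and Mcpt8 fell by 0.86 ± 0.26 (adjusted p 0.0253). Whether this bears on the lists was not tested.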

How the data were processed

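RNA of 17 32D cultures was hybridised to Affymetrix Mouse Exon 1.0 ST arrays. Per the submitters' processing notes, the authors used RMA and Affymetrix Expression Console 1.1, and the deposited table holds a log2 signal for each probe set, with no genome build given in the sources used here. RMA normalises between arrays, so a shift common to most genes would not be seen. Array medians lay between 4.63 and 4.69. Precision is limited by the number of arrays.

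Probe sets with 1 gene symbol in the platform annotation, updated through RefSeq synonyms (4227 symbols changed), were used where the mean over 17 arrays exceeded 4.599, the median of all 1256831 rows, and averaged per gene. Group means of 20227 genes were fitted with limma 3.58.1 in R 4.3.3 (lmFit, eBayes with a trend, two-sided), and p-values were adjusted by Benjamini-Hochberg over all genes. The test of variation was a one-sided F ratio of 8 over 4 degrees of freedom. Both procedures were tested on simulated data.

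The histone genes, their classes and the gene lists were chosen with earlier results of these data known. Every histone gene could be named. Values per array were given for the 5 genes of each class with the smallest F p, for called genes and for the somatic variants. From each other list up to 4 genes called against the controls were named, by p, and up to 2 elsewhere. Pseudogenes were only counted. Same-numbered control arrays showed no pairing (correlations of their deviations -0.118 to 0.0917). Alternatives covered the filter, the median of probe sets, renormalisation, the trend, the units, a replicate block and each array left out.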

Additional observations from a re-analysis of the deposited data

Results flagged for a closer look

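For 8 of 47 values tested (single genes, family means of probe sets and class means), 1 of the 9 ITD lines stood far from the others, with a gap to the nearest line, as a share of the whole range, above Dixon's 95% critical value. Chance does this for about 1 in 20 groups. Line 4 was high for H1f3, at 9.75 (ratio 0.516), for H2ac12, at 10.68 (0.576), and for the H3.3 probe sets that list several genes, at 12.04 (0.569). Line 7 was low for H2ax, at 10.83 (0.588), and for Macroh2a1, at 9.20 (0.72). Line 3 was low for H2ac8, at 14.20 (0.555), line 9 was high for H2az1, at 12.87 (0.511), and line 2 was low for the pseudogene H2af-ps2, at 4.31 (0.52). Each mutant had 1 array, so an outlying culture and an outlying mutant cannot be told apart.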

How the results depend on the processing

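Counts are of the 40 histone genes unless said otherwise. Where no count over all genes stands beside them, they describe only how stable a result was. No called value changed sign under any alternative run. Of the recomputed values of single called genes 178 kept their call and 115 lost it. The class difference for ITD minus controls, near 0 throughout, ran from -0.12 to 0.0738 with 1 array left out. With 1 array left out in turn, 1 to 4 genes were called for ITD minus controls, 0 to 1 for ITD minus WT FLT3, 0 to 7 for ITD minus WT FLT3 with ligand, 0 for WT FLT3 with ligand minus WT FLT3, 0 to 1 for WT FLT3 minus vector, 0 to 1 for vector minus parental, 1 to 10 for the F test over 5 groups and 0 to 8 for variation among ITD lines. The 10 came without line 4 and the 1 without the second ligand array. Without line 7, 4 genes were called for ITD minus controls. With dim probe sets removed up to the upper quartile, the counts were 2 for ITD minus controls, 1 for ITD minus WT FLT3 and 8 for the F test, and with no filter 3 for the F test and 5 for variation. With the median of probe sets they were 5 for ITD minus controls and 1 for variation, with renewed quantile normalisation 1 for WT FLT3 minus vector and 2 for the F test, and without a trend 2 for the F test. ITD minus controls gave 0 without the parental line and 0 with the 12 lines as units. A replicate block on the 8 arrays outside the ITD group gave 15 for WT FLT3 with ligand minus WT FLT3, 10 for WT FLT3 minus vector and 5 for vector minus parental. The same arrays without the block gave 15, 11 and 4. Of the histone genes 14, 10 and 4 were called in both. Of all 20227 genes 864, 4382 and 2418 were called with the block and 1148, 4652 and 2773 without it. For WT FLT3 minus vector and vector minus parental the share of histone genes was thus near that of all genes. With the block H2az1 lost its call with ligand (adjusted p 0.0689) and for WT FLT3 minus vector, and H2ac7 with ligand (0.0289) and H2bu2 for vector minus parental gained one. The numbers do not pair the samples. Added after seeing the data were these 8 arrays alone, ITD and ligand arrays alone (2 genes called) and lines 4 and 5 both left out. The last gave 0 for variation and 21 for ITD minus WT FLT3 with ligand. The class difference with ligand (replication-dependent median minus variant median, 0.666) lay between 0.549 and 0.716 with 1 array left out.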
